A study of Mus musculus with 12 samples.

Results

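NAD is the electron carrier that alcohol dehydrogenase and aldehyde dehydrogenase reduce to NADH when the liver oxidizes ethanol, and it is also consumed as a substrate by sirtuins, poly(ADP-ribose) polymerases (PARPs) and NAD glycohydrolases. Consumption releases nicotinamide, which is either recycled to NAD through the salvage pathway or methylated and lost, while the liver can also build NAD from tryptophan (the de novo pathway). Sirtuins are NAD-dependent enzymes that remove acetyl and other acyl groups from proteins, Sirt1 and Sirt6 mainly in the nucleus and Sirt3 and Sirt5 mainly in mitochondria. The question addressed here was how the mRNA levels of 10 genes of NAD supply, NAD consumption and the sirtuin family compare between alcohol-fed and pair-fed livers. The genes were taken by symbol from the 54232 gene IDs of the count table, namely Nampt, Nmrk1, Nmnat1, Nadsyn1, Nnmt, Cd38, Sirt1, Sirt3, Sirt5 and Sirt6, and all 10 were among the 14168 genes with enough reads for the test.

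Whole liver mRNA came from male mice of strain C57BL6/J in the intragastric model of alcohol-associated steatohepatitis (ASH), 5 of them pair-fed (PF) and 7 alcohol-fed (AF), with 8-week as the labelled age. That cannot be the age at sampling, because the tube feeding alone lasted 8 weeks. AF mice were given a high-fat liquid diet with ethanol through a gastric tube for 8 weeks, reaching 27 g/kg/day, with free access to a solid diet rich in cholesterol and saturated fat. A binge of 5 g/kg was given every week except the first, and tube feeding followed a lead-in on solid diet. PF mice were given the isocaloric high-fat liquid diet without ethanol over the same time, and whether they had the solid diet as well is not spelled out. The labels name no altered allele in either group, and the livers were taken a day after the last binge. The labels number the livers as replicates within each group, and p-values measure the spread between these samples.

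Each library held 24129900 to 30578639 reads on genes. Levels are given in CPM, the reads on a gene relative to all reads on genes, after scaling with the TMM factors of edgeR, which were 0.832 to 0.901 for PF libraries and 0.88 to 1.36 for AF libraries. The factors therefore differed between the groups: the median log2 fold change of all genes tested was 0.04 with TMM and 0.40 on library totals alone. The AF livers also differed among themselves, and on the first principal component (59.9% of the variance) AF replicate 6 lay nearest to the PF livers. The 6 hepatocyte markers summed to between 97209 and 137770 CPM in PF and between 50059 and 100583 CPM in AF livers. Alb made up most of each sum, and none of the 6 was at 0 in any liver.

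With edgeR's quasi-likelihood test and adjusted p at most 0.05 over all genes tested, Cd38 was higher in AF livers, Sirt1 and Nampt were lower, and the other 7 genes did not pass. That is 3 of 10 genes, or 30.0%, where 39.8% of all genes tested passed, of which 3116 (22.0% of those tested) were higher and 2519 (17.8%) lower. The share of the 10 genes was thus not above that of the transcriptome, and their median log2 fold change was -0.36 beside 0.04 for all genes. With any 1 liver left out, 1 of the 10 genes passed as higher and 2 or 3 as lower. On library totals without TMM, 3 of the 10 genes passed as higher (Cd38, Nmnat1 and Sirt6) and 0 as lower, while the split of all genes tested moved to 6458 higher and 938 lower. The direction of a change is therefore given below relative to the bulk of the transcriptome, with the value on library totals where the call differs. In bulk liver, fewer cells of a type and less RNA per cell cannot be told apart.

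**Figure D1:**
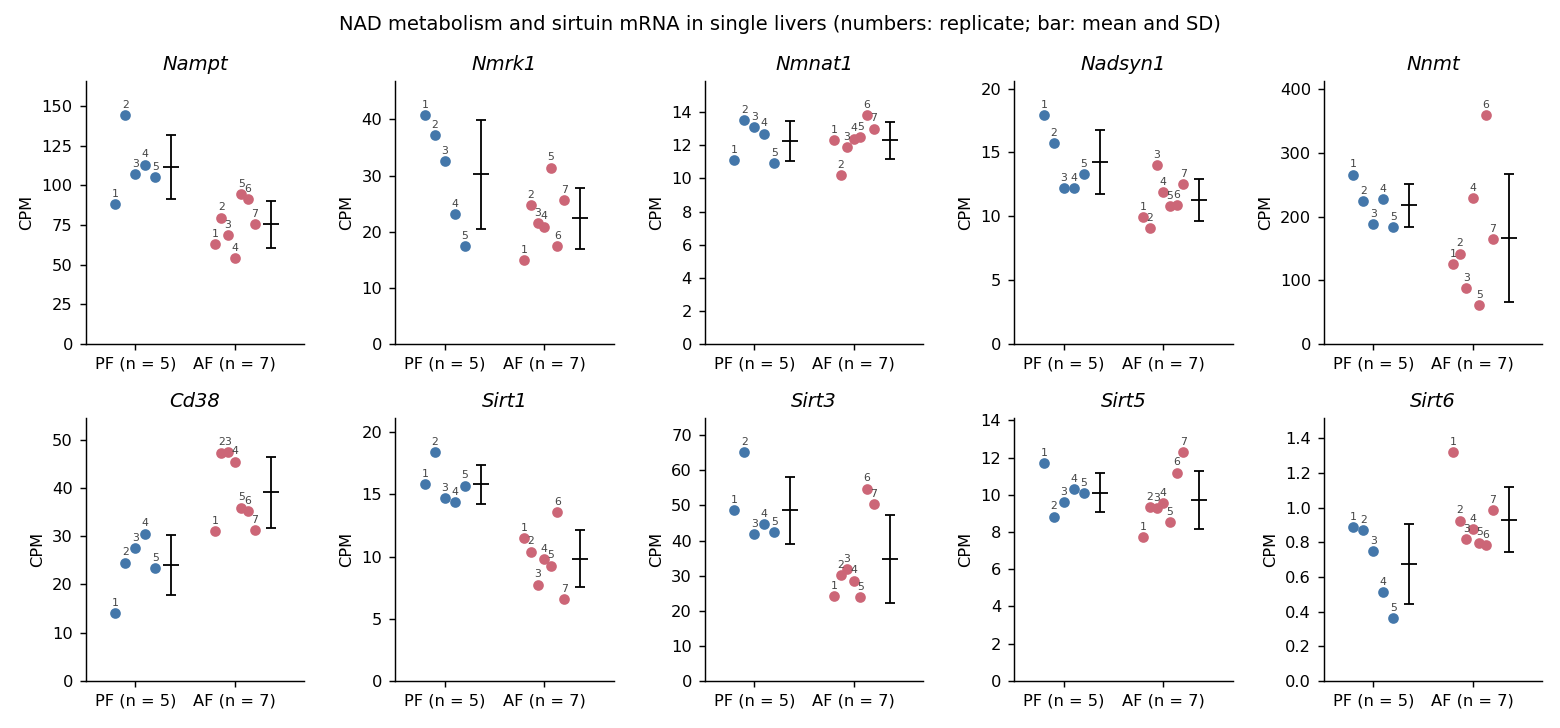
Levels of the 10 genes in CPM (vertical axis of each panel, starting at 0) in single PF (blue, n = 5) and AF (red, n = 7) livers, numbered by replicate; black bars are the mean and SD of each group. Cd38 and Sirt1 are the 2 genes whose PF and AF livers do not overlap (17.7% of all genes tested), and AF replicate 6 and AF replicate 7 lie within the PF livers for Sirt3.

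Nampt, the enzyme that recycles nicotinamide to nicotinamide mononucleotide (NMN) and limits the rate of NAD salvage, lay at 88.3, 144, 107, 113 and 105 CPM in PF replicates 1 to 5. In AF livers it ranged from 54.3 to 94.4 CPM with a median of 75.8 CPM. AF replicates 5 and 6 lay within the PF range, and the other 5 AF livers were below every PF liver. The mean was 111 ± 20.3 CPM in PF (SD, n = 5) and 75.3 ± 14.6 CPM in AF livers (SD, n = 7), and Nampt fell by 0.56 on the log2 scale (SE 0.149, edgeR adjusted p = 0.00973). On library totals the log2 fold change was -0.22 (edgeR adjusted p = 0.17), which is 0.62 below the median of all genes under that scaling.

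Nmrk1, the kinase that brings nicotinamide riboside into the salvage pathway, varied widely among the PF livers, with 40.7, 37.2, 32.5, 23.2 and 17.5 CPM. AF livers held 14.9 to 31.4 CPM (median 21.6 CPM), so that all but 1 of them lay within the PF range. The log2 fold change of -0.43 (SE 0.216) did not pass the test (edgeR adjusted p = 0.126). PF replicate 5 decided this outcome, since without it the log2 fold change was -0.58 with an edgeR adjusted p of 0.0382. Within each liver, the log2 ratio of Nmrk1 to Nampt reads, in which library scaling cancels, was -1.93 ± 0.56 in PF (SD, n = 5) and -1.76 ± 0.34 in AF livers (SD, n = 7). The difference of 0.17 was smaller than the spread within either group (exact two-sided permutation p = 0.525 over 792 splits, 0.805 adjusted over the 4 ratios examined).

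Nmnat1, the nuclear enzyme that joins NMN to an adenylyl group to form NAD, was the most even of the 10 genes. It lay between 10.9 and 13.5 CPM in PF and between 10.2 and 13.8 CPM in AF livers, with means of 12.3 ± 1.19 CPM (SD, n = 5) and 12.3 ± 1.13 CPM (SD, n = 7). Its log2 fold change was 0.01 (SE 0.0953, edgeR adjusted p = 0.953), and on library totals 0.37 (edgeR adjusted p = 0.0333), a value close to the median of all genes under that scaling.

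Nadsyn1, the synthetase that amidates the last intermediate of the de novo and nicotinic acid routes to NAD, lay at 17.9, 15.7, 12.2, 12.2 and 13.3 CPM in PF replicates 1 to 5 and from 9.08 to 14 CPM in AF livers (median 10.9 CPM). AF replicates 3 and 7 lay within the PF range, and the remaining AF livers were lower than any PF liver. The log2 fold change of -0.33 (SE 0.13) narrowly missed the threshold (edgeR adjusted p = 0.0562). On all livers it passed with RLE scaling (-0.35, edgeR adjusted p = 0.0462) and with DESeq2 (-0.35, DESeq2 adjusted p = 0.0439). It also passed without PF replicate 3 (-0.39, edgeR adjusted p = 0.0465), without PF replicate 4 (-0.39, edgeR adjusted p = 0.0473) and without AF replicate 3 (-0.39, edgeR adjusted p = 0.033). These were 5 of 20 alternatives, and in the other 15 Nadsyn1 did not pass, with a log2 fold change of -0.21 with sample quality weights (limma adjusted p = 0.155) and of 0.04 on library totals (edgeR adjusted p = 0.856).

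Nnmt, which methylates nicotinamide and so withdraws it from salvage, had 266, 224, 188, 228 and 184 CPM in PF livers. AF livers spread from 61.9 to 359 CPM with a median of 142 CPM. The AF group thus extended to both sides of the PF group: AF replicate 6 was above every PF liver, AF replicate 4 lay within the PF range, and the other AF livers were below it. The SD was 33.5 CPM in PF and 100.3 CPM in AF livers, and the log2 fold change of -0.38 was about as large as its SE of 0.342 (edgeR adjusted p = 0.388). Single livers moved this value, to -0.69 without AF replicate 6 (edgeR adjusted p = 0.0533) and to -0.23 without AF replicate 5 (edgeR adjusted p = 0.557). The log2 ratio of Nnmt to Nampt within a liver, which sets the methylation of nicotinamide beside its recycling, was 0.97 ± 0.37 in PF (SD, n = 5) and 0.96 ± 0.93 in AF livers (SD, n = 7). The groups did not differ in this ratio beyond their spread (difference -0.01, exact two-sided permutation p = 0.975, also 0.975 after adjustment over 4 ratios), while single AF livers ranged from -0.61 to 2.08.

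Cd38, a surface enzyme of leukocytes and other cells that hydrolyzes NAD to nicotinamide and ADP-ribose, lay at 14.1, 24.5, 27.5, 30.5 and 23.3 CPM in PF replicates 1 to 5. AF livers held 31.1 to 47.4 CPM with a median of 35.9 CPM, and every AF liver was above every PF liver, an arrangement found for 8.20% of all genes tested. The mean was 24 ± 6.19 CPM in PF (SD, n = 5) and 39.1 ± 7.4 CPM in AF livers (SD, n = 7). Cd38 rose by 0.70 on the log2 scale (SE 0.18, edgeR adjusted p = 0.00836), a ratio of means of 1.63. The call held on library totals (1.06, edgeR adjusted p = 0.00192) and when any 1 liver was left out (0.56 to 0.80, edgeR adjusted p 0.00746 to 0.0218).

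Like Cd38, most listed markers of macrophages, of stellate cells and fibroblasts and of bile ducts were higher in the AF group. The AF livers did not keep 1 order across these lists. AF replicate 1 had the lowest Cd38 of the AF livers (31.1 CPM) and the lowest Kupffer cell sum (891 CPM). The same liver had the highest stellate cell and bile duct sums (476 and 1089.8 CPM). Of all genes tested, 22.0% were higher and 17.8% lower. All 6 Kupffer cell markers were detected in every liver and summed to between 616 and 886 CPM in PF and between 891 and 2782 CPM in AF livers, with 5 of 6 higher. The 7 markers of recruited monocytes and macrophages summed to 222 to 549.9 CPM in PF and 515 to 2129.8 CPM in AF livers, with 5 of 7 higher. The B and plasma cell list did not follow Cd38, with sums of 11.2 to 41.9 CPM in PF and 3.55 to 13.2 CPM in AF livers, 2 of 6 lower and none at 0, and the T and NK cell list went from 6.77 to 12.3 CPM in PF to 3.61 to 7.11 CPM in AF livers, with 1 of 6 lower. The 6 neutrophil markers summed to 52.3 to 742 CPM in PF and 45.5 to 168 CPM in AF livers, with none called and a median log2 fold change of -0.51. The 742 CPM came from PF replicate 1 alone, and the next highest PF liver had 191 CPM. On library totals 1 neutrophil marker passed as higher and 1 B and plasma cell marker as lower. Ptprc, which encodes the pan-leukocyte antigen CD45, was at 39.6 ± 10.9 CPM in PF (SD, n = 5) and 60.9 ± 22.3 CPM in AF livers (SD, n = 7), with a log2 fold change of 0.62 that did not pass with TMM (edgeR adjusted p = 0.0592). Ptprc did pass as higher on library totals (1.00, edgeR adjusted p = 0.0117), and with TMM without PF replicate 5 (0.75, edgeR adjusted p = 0.0408), AF replicate 6 (0.69, edgeR adjusted p = 0.0374) or AF replicate 7 (0.70, edgeR adjusted p = 0.0348). The log2 ratio of Cd38 to Ptprc within a liver was -0.72 ± 0.44 in PF (SD, n = 5) and -0.59 ± 0.28 in AF livers (SD, n = 7), a difference of 0.14 that was within the spread (exact two-sided permutation p = 0.523, 0.805 adjusted over 4 ratios). All AF ratios lay within the PF range. The 6 markers of stellate cells and fibroblasts had 4 higher, with sums of 61.6 to 148 CPM in PF and 119 to 476 CPM in AF livers. The 5 bile duct markers had 4 higher, with sums of 49.5 to 244 CPM in PF and 70.3 to 1089.8 CPM in AF livers. Most of each bile duct sum was Spp1, the marker of that list that did not pass with TMM (1.68, edgeR adjusted p = 0.0635). Of the 5 sinusoidal endothelium markers, which summed to 98.2 to 196 CPM in PF and 135 to 218 CPM in AF livers, 1 was higher with TMM and 4 on library totals. The part of these cell types in the Cd38 result was not tested.

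**Figure D2:**
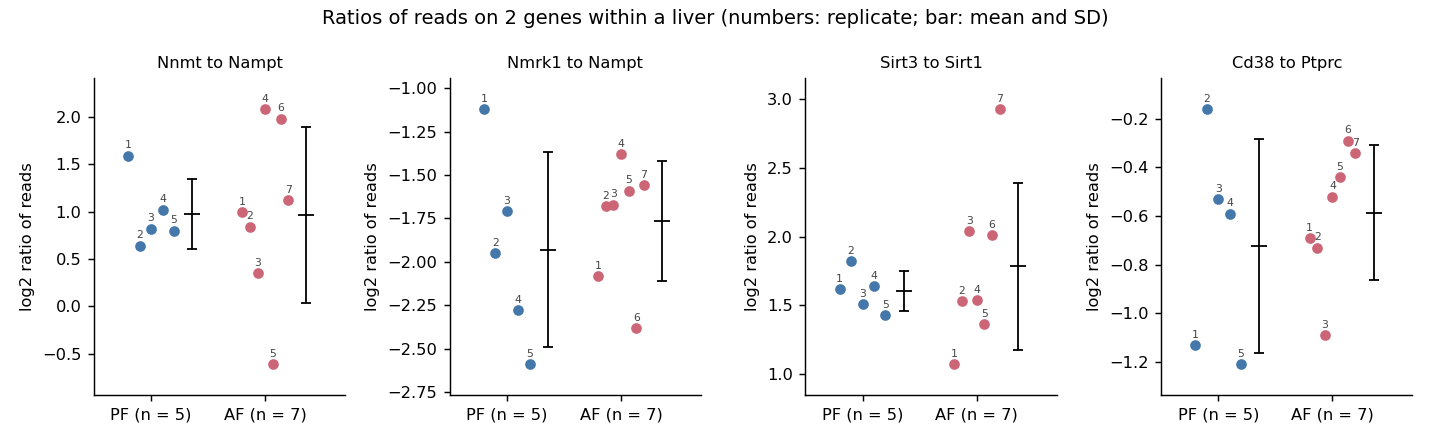
Log2 ratio of the reads on 2 genes within each liver (vertical axis; panels Nnmt to Nampt, Nmrk1 to Nampt, Sirt3 to Sirt1 and Cd38 to Ptprc) for PF (blue, n = 5) and AF (red, n = 7) livers numbered by replicate, with mean and SD in black. The groups overlap in all 4 panels, and AF livers spread over a wider range than PF livers for Nnmt to Nampt (SD 0.93 against 0.37) and Sirt3 to Sirt1 (SD 0.61 against 0.15).

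Sirt1, the nuclear deacetylase that acts on histones, p53, PGC-1alpha and SREBP1 among other substrates, lay at 15.8, 18.4, 14.7, 14.4 and 15.7 CPM in PF replicates 1 to 5. AF livers held 6.58 to 13.6 CPM with a median of 9.79 CPM. Every AF liver was below every PF liver, an arrangement found for 9.49% of all genes tested, with AF replicate 6 the nearest to the PF group and AF replicate 7 the farthest. The mean was 15.8 ± 1.6 CPM in PF (SD, n = 5) and 9.84 ± 2.33 CPM in AF livers (SD, n = 7), a ratio of 0.622. Sirt1 fell by 0.68 on the log2 scale (SE 0.155, edgeR adjusted p = 0.00433), and the call held when any 1 liver was left out (-0.78 to -0.61, edgeR adjusted p 8.67e-04 to 0.0148). On library totals the log2 fold change was -0.32 (edgeR adjusted p = 0.137), which is 0.72 below the median of all genes under that scaling. Of the 6 hepatocyte markers, 3 were lower in AF livers with TMM, with a median log2 fold change of -0.84 over the list. The part of hepatocyte content in the Sirt1 and Nampt values was not tested. Exons of Sirt1 overlap those of Gm16145 on the opposite strand, and the strand setting of the read counting is not given in the sources used here.

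Sirt3, the main deacetylase of mitochondrial enzymes, lay at 48.6, 65.2, 41.8, 44.7 and 42.5 CPM in PF livers. The AF livers were split: AF replicates 1 to 5 ranged from 23.9 to 31.9 CPM, all below the lowest PF liver, whereas AF replicate 6 had 54.8 CPM and AF replicate 7 had 50.3 CPM, both within the PF range. Over all livers the log2 fold change was -0.48 (SE 0.217, edgeR adjusted p = 0.0925). It was -0.63 without AF replicate 6 (edgeR adjusted p = 0.0177) and -0.59 without AF replicate 7 (edgeR adjusted p = 0.0398), so that either liver alone decided the call. With all livers kept and weighted by sample quality, Sirt3 passed as lower (-0.55, limma-voom adjusted p = 0.00675). The summed hepatocyte markers were also highest in AF replicates 6 and 7, with 98774 and 100583 CPM. The next highest AF liver had 76865 CPM. Alb made up most of these sums (77828 and 83937 CPM in AF replicates 6 and 7), and the other markers did not all follow. AF replicate 6 had the highest Cps1 and Serpina1c of the AF livers (4711 and 3017 CPM), and AF replicate 7 the highest Apoa1 and Ttr (3108 and 3207 CPM). In AF replicate 7, however, Cps1, Serpina1c and Apob (2216, 1589 and 6525 CPM) lay below AF replicate 2 (3088, 2616 and 8029.8 CPM). The part of hepatocyte content in the Sirt3 values was not tested. Exons of Sirt3 overlap Ric8a and Psmd13 on the opposite strand.

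The log2 ratio of Sirt3 to Sirt1 within a liver, which sets the mitochondrial beside the nuclear deacetylase, was 1.60 ± 0.15 in PF livers (SD, n = 5) and 1.78 ± 0.61 in AF livers (SD, n = 7). The difference of 0.18 was within the spread (exact two-sided permutation p = 0.604, 0.805 adjusted over 4 ratios), and it was -0.01 without AF replicate 7, whose ratio of 2.93 was the highest. AF replicate 7 had the lowest Sirt1 level of all livers and a Sirt3 level within the PF range.

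Sirt5, the mitochondrial enzyme that removes succinyl, malonyl and glutaryl groups, lay between 8.83 and 11.7 CPM in PF and between 7.72 and 12.3 CPM in AF livers. The log2 fold change of Sirt5 was -0.06 (SE 0.123, edgeR adjusted p = 0.74). Sirt6, a chromatin-bound deacetylase of histone H3, was near the limit of the measurement, with 8 to 19 reads per PF and 21 to 51 reads per AF library. It lay between 0.362 and 0.886 CPM in PF and between 0.782 and 1.32 CPM in AF livers, and the log2 fold change of 0.46 (SE 0.254) did not pass (edgeR adjusted p = 0.158). The 3 sirtuins outside the set, Sirt2, Sirt4 and Sirt7, did not pass either, with log2 fold changes from -0.24 to -0.06. Sirt7, at -0.24 (edgeR adjusted p = 0.0676), passed as lower in 5 of 20 alternatives, 3 of them without a single liver (PF replicate 4, AF replicate 6 or AF replicate 7, edgeR adjusted p 0.0362 to 0.0474), and turned to 0.11 on library totals (edgeR adjusted p = 0.408). Of the 7 sirtuins of the mouse, Sirt1 was the only one that passed edgeR's test with TMM, all livers and no replicate block. With the replicate block, Sirt3 (-0.80, edgeR adjusted p = 0.00175) and Sirt7 (-0.32, edgeR adjusted p = 0.0371) passed as lower too. That fit takes no group difference from AF replicates 6 and 7, which share their number with no PF liver. For both genes these were the AF livers within the PF range. On library totals Sirt1 did not pass, and Sirt2 (0.29, edgeR adjusted p = 0.0194) and Sirt6 (0.85, edgeR adjusted p = 0.029) passed as higher.

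**Figure D3:**
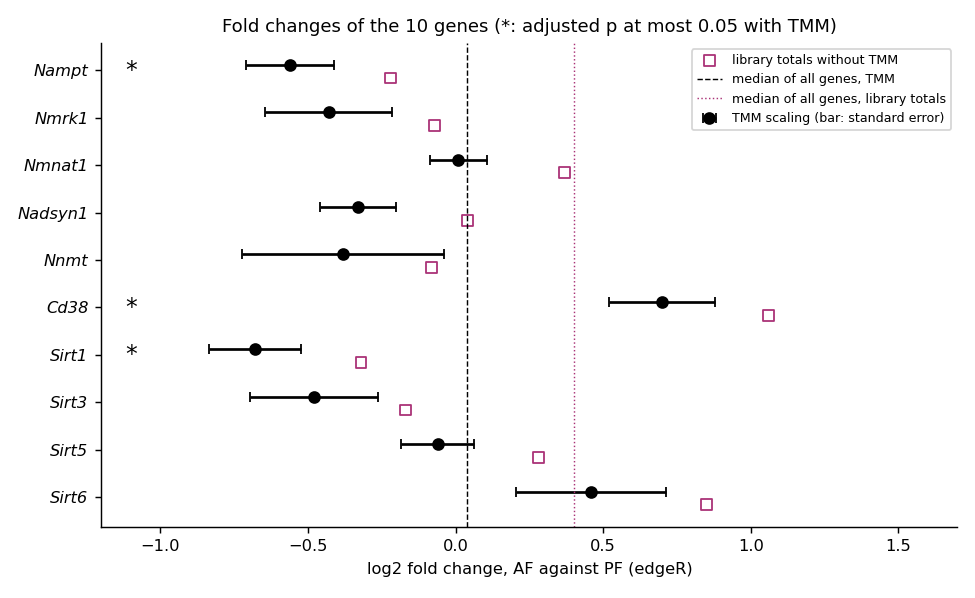
Log2 fold change of each of the 10 genes, AF against PF (horizontal axis), with TMM scaling (black points, bars are the standard error) and on library totals (open squares); vertical lines are the medians of all genes tested, 0.04 with TMM and 0.40 on library totals, and asterisks mark an edgeR adjusted p of at most 0.05 with TMM. Every gene moves to the right by a similar amount on library totals, so that Nampt and Sirt1 stay to the left of the median of all genes and Cd38 to its right under both scalings.

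Levels were compared between genes per kilobase of exon. In PF livers Nnmt was the most abundant at 138 ± 21.3 CPM per kilobase (SD, n = 5), followed by Nampt at 22 ± 4.03. Nmrk1 (8.19 ± 2.63), Sirt3 (8.13 ± 1.62), Cd38 (6.17 ± 1.59), Nadsyn1 (4.31 ± 0.757) and Nmnat1 (4.03 ± 0.393) followed, and each of these overlapped its neighbour in the order. Sirt1 (2.97 ± 0.3), Sirt5 (1.66 ± 0.17) and Sirt6 (0.243 ± 0.0828) came last and did not overlap each other in PF livers. In AF livers Nnmt (106 ± 63.6 CPM per kilobase, SD, n = 7) and Nampt (14.9 ± 2.88) remained first, while Cd38 at 10 ± 1.9 stood in the third place, where it overlapped both Nampt and Nmrk1 (6.07 ± 1.49). Sirt1 at 1.85 ± 0.437 CPM per kilobase overlapped Sirt5 at 1.59 ± 0.257 in AF livers, and Sirt6 stayed lowest at 0.334 ± 0.0673.

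The promoters of the 2 genes that fell, Sirt1 and Nampt, are shown because both changed in the same direction. Among the 250 bases before the RefSeq start (assembly GRCm38.p6), 9 of the 10 genes had 12 entries in the promoter table, and Nnmt had none. Both strands were searched for the canonical E-box CACGTG, the GC box GGGCGG and the TATA box TATAAA, with overlapping matches counted singly. Capitals mark E-boxes and GC boxes on either strand (a GC box on the other strand reads CCGCCC), and the sequences run 5′ to 3′ on the strand of the gene. Nampt is shown at chr12:32820085-32820334 (plus strand) and Sirt1 at chr10:63339051-63339285 (minus strand), cut to the part of its window outside annotated exons. Both printed windows lie inside the annotated gene, since GENCODE places the 5′ end of the gene farther upstream than the RefSeq start used here.
Nampt: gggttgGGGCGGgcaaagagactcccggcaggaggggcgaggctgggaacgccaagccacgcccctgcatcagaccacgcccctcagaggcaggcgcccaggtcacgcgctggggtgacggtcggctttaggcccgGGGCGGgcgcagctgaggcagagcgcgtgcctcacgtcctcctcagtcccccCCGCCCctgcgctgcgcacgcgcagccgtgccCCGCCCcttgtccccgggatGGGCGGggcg
Sirt1: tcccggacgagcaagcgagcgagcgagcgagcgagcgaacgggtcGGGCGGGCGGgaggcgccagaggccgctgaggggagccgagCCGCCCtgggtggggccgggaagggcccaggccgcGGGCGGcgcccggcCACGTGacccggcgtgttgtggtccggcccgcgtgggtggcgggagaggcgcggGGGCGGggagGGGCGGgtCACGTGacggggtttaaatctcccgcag
The Sirt1 window held 2 E-boxes, which start 115 and 43 bases before the RefSeq start, 6 GC boxes and 39 CpG dinucleotides, with 79.2% G or C. Nampt held 5 GC boxes, 27 CpG dinucleotides and 75.6% G or C, and no E-box. Of 32851 mouse promoter windows of the same length, 6.02% held CACGTG, 32.7% GGGCGG and 12.4% TATAAA, and the medians were 52.4% G or C and 6 CpG dinucleotides. Sirt1 was the only one of the 9 genes with an E-box in its window, and none held a TATA box. GC boxes were not particular to the genes that fell, since 8 of the 12 entries held at least 1. Genes that did not pass were also rich in G or C. Nadsyn1 had 66%, 23 CpG dinucleotides and 2 GC boxes, and Nmrk1 had 69.2%, 21 CpG dinucleotides and no GC box. The window of Cd38, the gene that rose, held 48.8% G or C, 1 CpG dinucleotide and none of the 3 motifs. That window lies wholly within an annotated exon of Cd38, whereas the Nampt window lies outside exons. The composition given for Sirt1 is that of its full window, of which the printed 235 of 250 bases lie outside exons. A match in these letters is a description of the window, and binding was not measured.

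The 10 genes sit in a wider network of NAD reactions, of which 74 other genes were listed and 69 had enough reads for the test. Of the 69 genes, 6 were higher and 20 lower in AF livers, with a median log2 fold change of -0.22. Together that is 37.7% called, close to the 39.8% of all genes tested. On library totals 19 passed as higher and 14 as lower, and the counts by list below are given with TMM and, where they differ, on library totals. The shares to set beside them are those of all genes tested, 22.0% higher and 17.8% lower with TMM.

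The tryptophan (de novo) pathway, which runs from tryptophan over kynurenine and quinolinate to nicotinic acid mononucleotide, had 7 of 8 tested genes lower and none higher, with a median log2 fold change of -0.83. That is 87.5% lower, where 17.8% of all genes tested were lower. Ido2, a dioxygenase that opens the indole ring of tryptophan, lay between 80 and 127 CPM in PF and between 20.2 and 54.6 CPM in AF livers and fell by 1.39 on the log2 scale (SE 0.209, edgeR adjusted p = 3.81e-04). Haao, the dioxygenase whose product closes to quinolinate, lay between 221 and 268 CPM in PF and between 39.7 and 163 CPM in AF livers and fell by 1.32 (SE 0.307, edgeR adjusted p = 0.00497). For both genes every AF liver was below every PF liver, an arrangement found for 9.49% of all genes tested. The other 5 called genes fell by 0.83 to 0.98 on the log2 scale. Acmsd, named because it was the gene that did not pass, diverts the pathway away from NAD and had a log2 fold change of -0.70 (edgeR adjusted p = 0.0635). Acmsd passed as lower in 4 of 20 alternatives, among them without AF replicate 3 (-0.80, edgeR adjusted p = 0.0479) and without AF replicate 4 (-0.84, edgeR adjusted p = 0.0291), and it was at -0.48 without PF replicate 4 (edgeR adjusted p = 0.194) and -0.30 on library totals (edgeR adjusted p = 0.456). On library totals 6 of the 8 genes passed as lower. The summed hepatocyte markers were lower in AF livers as well, with 3 of 6 genes lower and a median log2 fold change of -0.84, close to that of the pathway, and their part in these values was not tested.

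**Figure D4:**
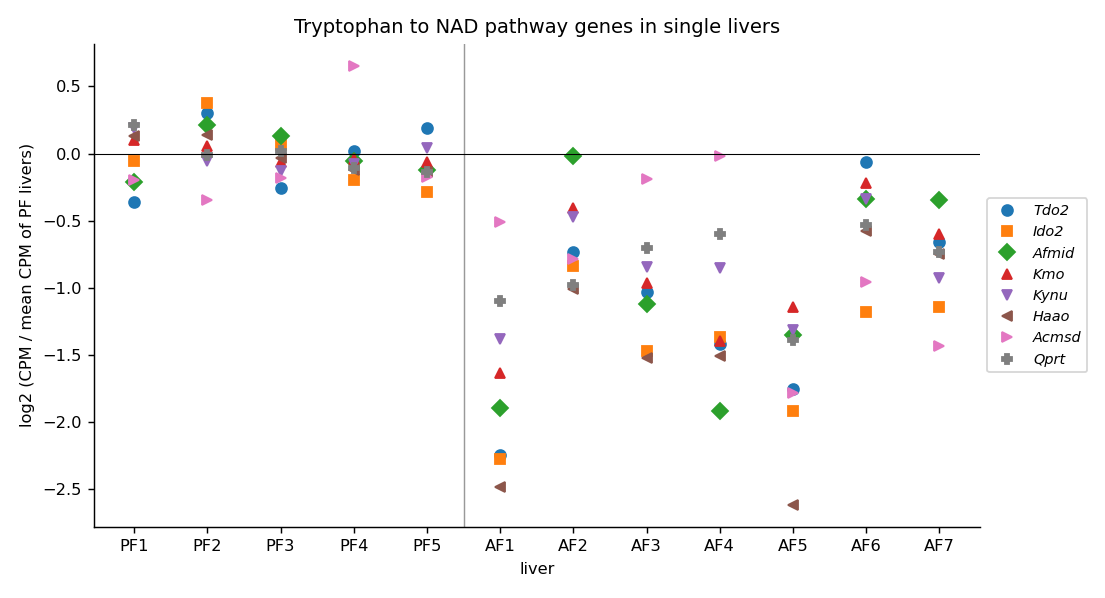
Log2 of the CPM of each tested gene of the tryptophan pathway over its PF mean (vertical axis) in each liver (horizontal axis). AF livers lie mostly below 0, with Haao and Ido2 lowest in AF replicates 1 and 5, and AF replicate 6 has Tdo2 and Kmo near the PF level.

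Among the other genes of precursor salvage and NMN adenylylation, 2 of 6 tested genes rose and 1, Pnp, fell (on library totals 2 higher and 0 lower). Nt5e, the ecto-enzyme CD73 that dephosphorylates extracellular AMP and NMN, lay at 3.3, 4.76, 7.46, 7.12 and 7.78 CPM in PF livers and between 22.2 and 153 CPM in AF livers. Every AF liver was above every PF liver, as for 8.20% of all genes tested. The ratio of means was 11.2, and Nt5e rose by 3.48 on the log2 scale (SE 0.528, edgeR adjusted p = 3.92e-04). Markers of stellate cells and fibroblasts, a cell type known to carry CD73, and of bile ducts were also higher in the AF group. These were 4 of 6 (6 of 6 on library totals) and 4 of 5 (5 of 5 on library totals), with none at 0. Their part in the Nt5e result was not tested. Slc12a8, described as a carrier of NMN, was at 0.463 ± 0.217 CPM in PF (SD, n = 5) and 1.78 ± 1.71 CPM in AF livers (SD, n = 7), and rose by 1.95 on the log2 scale (SE 0.611, edgeR adjusted p = 0.0227). This call was lost without PF replicate 1 (1.82, edgeR adjusted p = 0.0518) and without PF replicate 3 (1.75, edgeR adjusted p = 0.0568). It was also lost with limma-voom (1.66, adjusted p = 0.073). AF replicate 1 had the highest level at 5.39 CPM, and leaving it out gave a log2 fold change of 1.36 (edgeR adjusted p = 0.035).

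On the side of NAD consumption, the PARP family had 1 of 16 genes higher and 1 lower (5 and 0 on library totals) and a median log2 fold change of -0.06. With TMM that is 12.5% called, where 39.8% of all genes tested passed. On library totals all genes tested gave 6458 higher and 938 lower. Parp8, a mono-ADP-ribosyl transferase, rose by 1.24 on the log2 scale (SE 0.287, edgeR adjusted p = 0.00481), from 2.39 ± 0.614 CPM in PF (SD, n = 5) to 5.64 ± 2.02 CPM in AF livers (SD, n = 7). Parp9, an interferon-inducible partner of Dtx3l, fell by 0.60 (SE 0.13, edgeR adjusted p = 0.00336), and on library totals it did not pass (-0.25, edgeR adjusted p = 0.159). Parp9 and Dtx3l overlap in their exons on opposite strands. Parp1, the main consumer of NAD upon DNA damage, was named after its values were seen and stayed at 34.6 ± 0.789 CPM in PF (SD, n = 5) and 32.6 ± 3.13 CPM in AF livers (SD, n = 7), with a log2 fold change of -0.08 (edgeR adjusted p = 0.404).

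Among the other NAD glycohydrolases and pyrophosphatases, 2 of 4 genes fell with TMM, both of them ectonucleotide pyrophosphatases, and on library totals 1 was higher and 1 lower. Enpp3 fell by 1.00 on the log2 scale (SE 0.18, edgeR adjusted p = 0.00116), from 101 to 123 CPM in PF to between 39.3 and 85.4 CPM in AF livers. Enpp1 fell by 0.60 (SE 0.0863, edgeR adjusted p = 2.93e-04), with 44.1 to 53.1 CPM in PF and 26.8 to 35.1 CPM in AF livers, a call that was lost on library totals (-0.24, edgeR adjusted p = 0.0729). In both, every AF liver was below every PF liver, as for 9.49% of all genes tested. Bst1, named after its values were seen, encodes CD157, the relative of CD38 in this list. It lay between 0.686 and 2.53 CPM in PF and between 1.43 and 3.39 CPM in AF livers. The log2 fold change of 0.81 did not pass with all livers and TMM (edgeR adjusted p = 0.0557). Bst1 passed as higher in 7 of 20 alternatives. These were library totals (1.19, edgeR adjusted p = 0.0152), DESeq2 (0.79, DESeq2 adjusted p = 0.0383), sample quality weights (0.84, limma adjusted p = 0.0227) and 4 of 12 fits that left out a single liver (edgeR adjusted p 0.0165 to 0.126 over the 12). Of the aldehyde oxidases, which oxidize nicotinamide and its methylated form, 2 of 4 could be tested, and they did not move alike. Aox3 fell by 1.60 (SE 0.237, edgeR adjusted p = 3.43e-04), from 628 ± 99.6 CPM in PF (SD, n = 5) to 208 ± 72.3 CPM in AF livers (SD, n = 7). Aox1, the other tested gene, was at 110.3 ± 13.4 CPM in PF (SD, n = 5) and 129 ± 46.3 CPM in AF livers (SD, n = 7), with a log2 fold change of 0.23 with TMM (edgeR adjusted p = 0.437) and 0.54 on library totals, where it passed as higher (edgeR adjusted p = 0.0263).

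Of the 9 genes that form or remove NADP, repair damaged NADH and NADPH or carry NAD into mitochondria, 1 rose and 2 fell with TMM, and on library totals 2 were higher and 1 lower. With TMM that is 33.3% called, not above the 39.8% of all genes tested. Nadk2, the mitochondrial NAD kinase, fell by 0.77 on the log2 scale (SE 0.169, edgeR adjusted p = 0.00349), from 175 ± 25.9 CPM in PF (SD, n = 5) to 102 ± 24.1 CPM in AF livers (SD, n = 7). Nadk, the cytosolic kinase, was the gene that rose and is named for that reason, with 212 ± 12.8 CPM in PF (SD, n = 5), 263 ± 35.6 CPM in AF livers (SD, n = 7) and a log2 fold change of 0.31 (edgeR adjusted p = 0.0342). Its call was lost in 8 of 12 fits that left out a single liver (edgeR adjusted p up to 0.0937) and with the filter at 1 count in any library (0.32, edgeR adjusted p = 0.0705). Nudt12, a peroxisomal hydrolase of NADH, fell by 0.41 (SE 0.127, edgeR adjusted p = 0.0224), a call lost on library totals (-0.08, edgeR adjusted p = 0.491) and without PF replicate 3 (-0.38, edgeR adjusted p = 0.0542). Its exons overlap Nudt12os on the opposite strand.

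The genes that reoxidize cytosolic NADH or shuttle its electrons into mitochondria gave 1 of 12 higher and 4 lower (6 and 2 on library totals), with a median log2 fold change of -0.12. With TMM that is 41.7% called, close to the 39.8% of all genes tested. Slc25a13, the aspartate-glutamate carrier of the malate-aspartate shuttle in liver, fell by 0.74 on the log2 scale (SE 0.152, edgeR adjusted p = 0.00256). Mdh1, the cytosolic malate dehydrogenase of that shuttle, fell by 0.66 (SE 0.176, edgeR adjusted p = 0.0101), from between 704 and 749.9 CPM in PF to between 283 and 646 CPM in AF livers. Both genes had every AF liver below every PF liver (9.49% of all genes tested did), and Mdh1 exons overlap Wdpcp on the opposite strand. Mdh2, the mitochondrial malate dehydrogenase of the same shuttle, was the gene that rose and is named for that reason, with 100.3 to 119.8 CPM in PF, 114 to 189 CPM in AF livers and a log2 fold change of 0.50 (edgeR adjusted p = 0.00517). Of the 9 genes of ethanol and acetaldehyde oxidation, which reduce NAD or bypass it, 1 rose and 2 fell (1 and 3 on library totals). The share called with TMM was 33.3%, also not above that of all genes tested (39.8%). Adh4, an alcohol dehydrogenase, fell by 2.00 on the log2 scale (SE 0.359, edgeR adjusted p = 0.00115), from 205 ± 8.56 CPM in PF (SD, n = 5) to 51.3 ± 32.2 CPM in AF livers (SD, n = 7). Aldh1b1, a mitochondrial aldehyde dehydrogenase, rose by 0.82 (SE 0.234, edgeR adjusted p = 0.014). Cyp2e1, the microsomal oxidase that oxidizes ethanol without NAD, lay between 9182 and 12604 CPM in PF and between 472 and 7236 CPM in AF livers and is named after its values were seen. Every AF liver was below every PF liver, as for 9.49% of all genes tested. The log2 fold change of -1.62 (SE 0.611) nonetheless stood at the threshold with an edgeR adjusted p of 0.05002. The AF livers were split, with AF replicates 1, 3, 4 and 5 at 472 to 1119 CPM and AF replicates 2, 6 and 7 at 5800.2 to 7236 CPM. Cyp2e1 passed as lower in 10 of 20 alternatives, library totals among them (-1.41, edgeR adjusted p = 0.0361), and in 3 of the 12 fits without a single liver. Its log2 fold change reached -2.23 with limma-voom (adjusted p = 0.028) and -2.42 with sample quality weights (limma adjusted p = 0.00197).

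**Figure D5:**
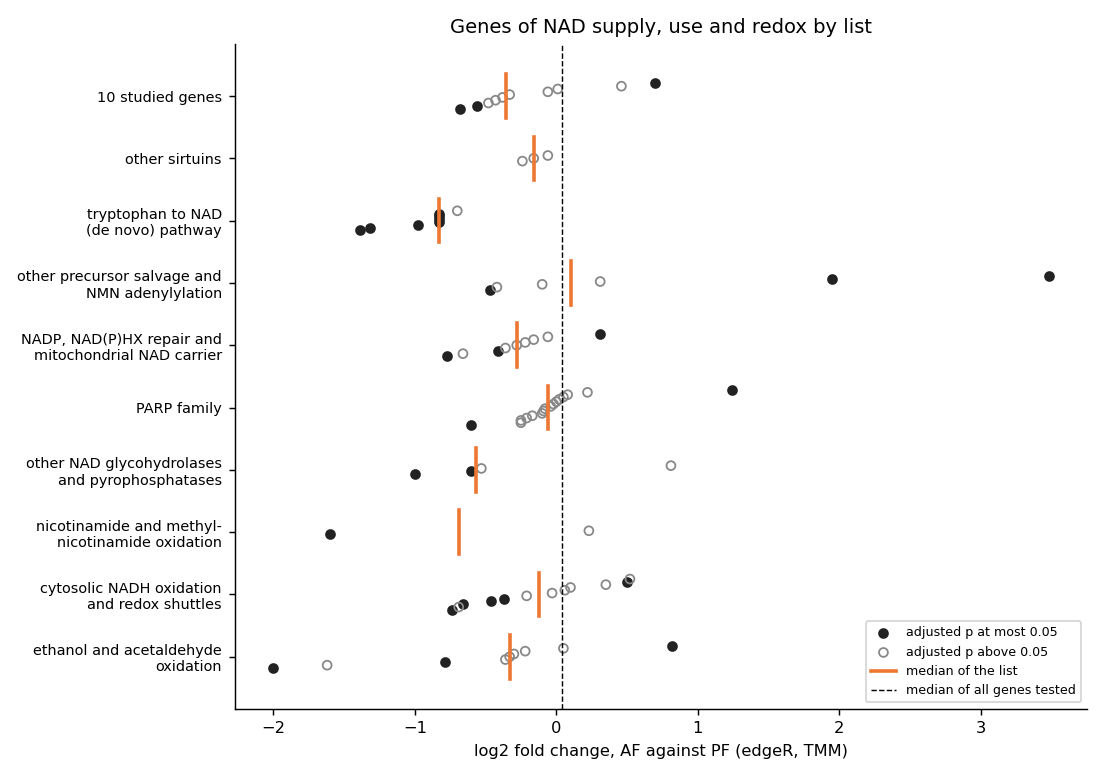
Log2 fold change of every tested gene of the 10-gene set and of the 9 lists of NAD supply, use and redox, AF against PF (horizontal axis), by list (vertical axis); filled points passed the edgeR test at an adjusted p of at most 0.05, orange bars are list medians and the dashed line is the median of all genes tested (0.04). Among the lists drawn, the tryptophan pathway has the lowest median (-0.83), the PARP family lies around the median of all genes, and Nt5e lies farthest to the right at 3.48.

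The positions of the genes, in GRCm38 coordinates of GENCODE release M21, were chr12:32819545-32853349 for Nampt, chr5:43868553-43912375 for Cd38, chr10:63319005-63381704 for Sirt1, chr7:140863666-140882309 for Sirt3 and chr9:48591877-48605153 for Nnmt. Values refer to all annotated exons of a gene, and transcripts were not told apart.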

How the data were processed

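RNA sequencing was performed on poly(A)-enriched liver RNA (stranded library kit) of 5 PF and 7 AF mice. According to the submitters' processing notes and the study's methods, the authors used FastQC 0.10.1, TopHat2 2.0.13 and HTSeq 0.10.0 with GRCm38, and deposited raw read counts per Ensembl gene. The annotation release and strand setting are not given in the sources used here, and the study's Cuffdiff2 test could not be repeated on counts. Of 54232 IDs, 54165 were named with GENCODE M21. Counts (R 4.3.3) were filtered with filterByExpr, scaled with TMM and tested with the quasi-likelihood test of edgeR 4.0.16, AF against PF with no covariate. A gene was called at a Benjamini-Hochberg adjusted p of at most 0.05. The SE was taken from the F statistic. Ratios were computed on reads plus 0.5 and tested by exact permutation over 792 splits (smallest p 0.00253). The genes and lists were chosen with earlier results of these data known. Named were all 10 genes, Ptprc, and from each other list the 2 genes with the largest change past the threshold and a mean of at least 1 CPM. Alternatives were RLE, library totals, DESeq2 1.42.0, limma-voom 3.58.1 with and without quality weights, other filters, a replicate block and each liver left out. The steps were tested on simulated data. Within groups, none of the 31 pairs of libraries agreed within sampling noise.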

Additional observations from a re-analysis of the deposited data

Results flagged for a closer look

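Among 60 groups of values (26 genes and 4 ratios, PF and AF each), 3 held a liver that stood apart from the rest of its group by Dixon's criterion, and chance alone gives about 3. Sirt6 was at 1.32 CPM in AF replicate 1, above the other AF livers. Slc12a8 was at 5.39 CPM in the same liver. Nudt12 was at 76.2 CPM in AF replicate 6, within the PF range.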

How the results depend on the processing

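Of 200 recomputed fold changes of the 10 genes, 174 kept their direction and their side of the threshold, 2 lost and 14 gained a call, and 10 turned sign. Those 10 were all of Nmnat1, Nadsyn1 or Sirt5, which did not pass. Cd38 held under every alternative run (0.56 to 1.06). On library totals without TMM, 3 of the 10 genes were called higher and 0 lower, 19 other pathway genes were called higher, all genes gave 6458 higher and 938 lower, and Nadsyn1 turned to 0.04 and Sirt5 to 0.28. With sample quality weights 2 of the 10 genes were called higher (Cd38 and Sirt6) and 3 lower (Nampt, Sirt1 and Sirt3). Ptprc passed with quality weights (0.65, limma adjusted p = 0.0212), and Slc12a8 did not pass with limma-voom (1.66, limma adjusted p = 0.073). Nmnat1 was at -0.01 with RLE, -0.01 with DESeq2 and -0.02 with quality weights, and between -0.04 and 0.04 with 1 liver left out. The log2 ratio of Nnmt to Nampt ranged from -0.20 to 0.25 and that of Sirt3 to Sirt1 from -0.01 to 0.30 with 1 liver left out. The causes were not tested.

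The labels do not say whether equal replicate numbers mark paired mice. Same-numbered livers deviated with correlations of -0.0749 to 0.117, and 2 of 5 PF livers correlated best with their own number. So few pairs cannot decide whether the livers were paired. AF replicates 6 and 7 have no PF liver of the same number, so a fit with the replicate block takes no group difference from them. With the replicate block Ptprc passed as higher (0.78, edgeR adjusted p = 0.0271), 4 of the 10 genes were called lower, Sirt3 (-0.80, edgeR adjusted p = 0.00175) and Nnmt (-0.88, edgeR adjusted p = 0.012) among them, 33 other pathway genes were called lower (7 of ethanol oxidation with Cyp2e1 at -3.0, and Sirt7 and Acmsd among them), Nadk lost its call (0.21, edgeR adjusted p = 0.105), Nmnat1 was at -0.04, and the Sirt3 to Sirt1 ratio differed by -0.09 over pairs (exact sign-flip p = 0.562, smallest possible 0.0625).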
